A study of Mus musculus with 22 samples.

Results

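The acinar digestive enzyme genes are the genes that the enzyme-secreting cells of the exocrine pancreas transcribe at high level. Here they were followed in RNA of isolated islets, the endocrine clusters that lie within that tissue. The set was a written list of 33 gene symbols, looked up by name in the deposited table. The lookup used no measured values, but the list was drawn up with earlier results of these data known. All 33 were found among 57010 rows, each symbol on a single row, and 29 of them passed a filter of at least 1 TPM in at least 5 libraries. The 4 that did not pass were Prss1, Cela3a, Rbpjl and Ptf1a.

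The data were poly(A) RNA libraries from the islets of 22 male mice aged 5.5 weeks, with 1 mouse per library. The column names of the table give the age as a range around that value. On the C57 background 5 mice were WT and 6 Het, and on the Mixed background again 5 were WT and 6 Het, where Het is heterozygous for MAFA S64F, a serine to phenylalanine change in a beta-cell transcription factor, and WT is wild type. The labels name neither the strains behind Mixed nor any treatment, and all groups shared sex, age and tissue. Replicate numbers below follow accession order and only name a mouse.

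Acinar cells make up most of the pancreas and store their enzymes as inactive precursors in zymogen granules. Trypsin, once activated in the gut, activates the other protease precursors, while lipases, amylases and a ribonuclease are secreted alongside. The genes share control by the PTF1 complex, built on PTF1A and RBPJL, and by MIST1, the product of Bhlha15, which scales up the secretory apparatus. Islets are freed from this tissue by enzymatic digestion and picking, so acinar transcripts in an islet library are well known to occur. In bulk RNA, more acinar cells and more acinar RNA per cell cannot be told apart, and this holds for every value below.

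Values are TPM, a transcript abundance scaled to one total per library and corrected for transcript length, so levels of different genes can be set side by side. TPM keeps no sequencing depth, so the depth of each library was unknown. Mafa, the altered gene, was 441 ± 87.6 TPM (SD, n = 5) in C57 WT, 117 ± 23.2 TPM (n = 6) in C57 Het, 598 ± 143 TPM (n = 5) in Mixed WT and 152 ± 37.1 TPM (n = 6) in Mixed Het islets. The 7 beta cell markers together held 369800 to 449720, 323700 to 379130, 401090 to 478610 and 250530 to 342500 TPM in these groups, in that order.

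The 33 genes together were a small part of every library and were higher on average in Het islets on both backgrounds. They held 0.0546 ± 0.0111% of all TPM (SD, n = 5) in C57 WT, 0.145 ± 0.0884% (n = 6) in C57 Het, 0.0831 ± 0.0440% (n = 5) in Mixed WT and 0.148 ± 0.0295% (n = 6) in Mixed Het islets. The ratio of the Het to the WT mean was 2.66 in C57 and 1.78 in Mixed. In C57, 5 of the 6 Het libraries lay above every WT library, and Het 3 (503 TPM in sum) lay within the WT range of 425 to 667 TPM. In Mixed, all 6 Het libraries lay above the WT mean but only 3 lay above every WT library.

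**Figure D1:**
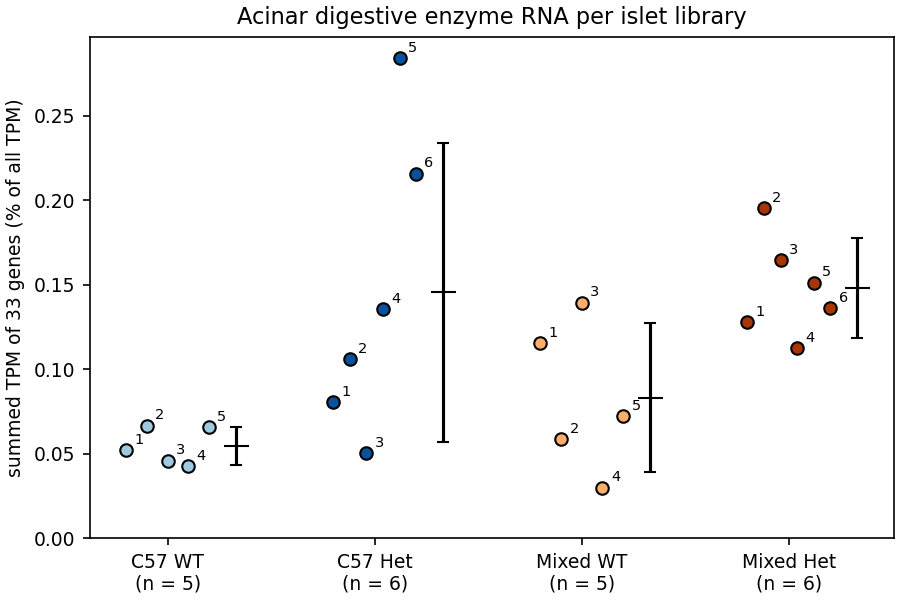
Summed TPM of the 33 genes as a percent of all TPM (vertical axis, linear from 0) in each library, by group; points carry replicate numbers, and the bar beside each group is the mean with SD. C57 WT libraries sit between 0.0425% and 0.0667%, Mixed Het libraries between 0.112% and 0.196%, and C57 Het and Mixed WT libraries spread widely.

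Mice of one group differed widely. The highest library, C57 Het 5 (2840 TPM in sum), held 9.51 times the sum of the lowest, Mixed WT 4 (299 TPM). Within a group the highest library held 1.57 times the lowest in C57 WT and 1.74 times in Mixed Het, against 5.65 times in C57 Het and 4.67 times in Mixed WT. Het 5 and Het 6 were the high libraries of C57 Het, and WT 1 and WT 3 those of Mixed WT.

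Gene by gene, 19 of the 29 tested genes rose in C57 Het islets and 10 rose in Mixed Het islets, and none fell on either background. The test was limma on log2(TPM + 1) over all 16756 genes that passed the filter, with Benjamini-Hochberg adjusted p under 0.05 as the call. Genotype moved much of the transcriptome: 38.0% of all tested genes passed in C57 and 44.1% in Mixed. Those that passed upward were 26.4% of all tested genes in C57 and 30.7% in Mixed. The 65.5% of members called in C57 was above that background, and the 34.5% called in Mixed was close to it. The median difference of the 29 genes on the log2(TPM + 1) scale was 1.11 for C57 and 0.86 for Mixed, beside medians of 0.08 and 0.10 over all tested genes. With median-of-ratios scaling the Mixed median of all genes moved by more than 0.1, from 0.10 to -0.01, and the upward share of all calls dropped to 53.5% for C57 and 48.9% for Mixed, from 69.5% on each. Under that scaling 17 members were called in C57 and 7 in Mixed, all of them higher in Het, beside 39.3% and 43.7% of all tested genes.

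These counts leaned on single mice. Without C57 Het 5, the highest C57 library, 12 members were called in C57 (33.6% of all tested genes), and without the low library C57 Het 3, 22 were called (38.1%). Without Mixed WT 4, the lowest library of all, 2 members were called in Mixed (37.3% of all tested genes), and without Mixed WT 3, the highest Mixed WT library, 19 were called (38.8%). With the mean level of 13 other acinar genes as a covariate, 0 members were called in C57 and 12 in Mixed, all of the latter lower in Het; the same fits called 23.6% and 17.4% of all tested genes. Separation of the groups was rare. Het values did not overlap WT values, from above, for Cela1, Sycn and Zg16 in C57, beside 15.9% of all tested genes, and for Cela1 and Zg16 in Mixed, beside 17.9%. The difference between the 2 genotype effects was called for 0 of 29 members (7.36% of all genes were called), with a median of -0.22 and a range from -1.22 to 0.69. At an unadjusted p under 0.05 the interaction test of limma also gave 0 members.

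**Figure D2:**
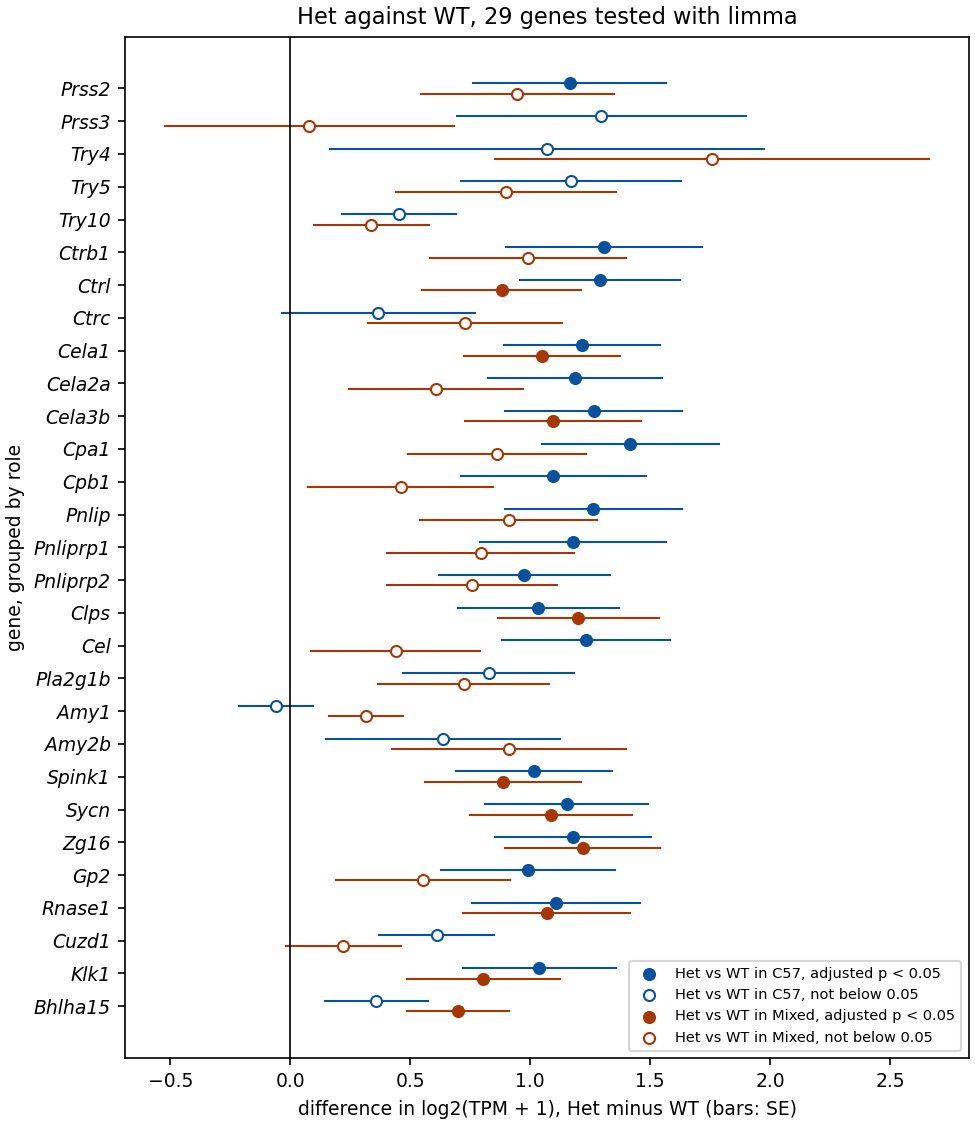
Het minus WT difference in log2(TPM + 1) (horizontal axis) with its SE for each of the 29 tested genes, in C57 (blue) and Mixed (brown); filled points have an adjusted p under 0.05 in limma. In C57, 28 of 29 points lie right of 0, and Amy1 lies at -0.06; in Mixed all 29 lie right of 0.

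The DNA before these genes is shown for 5 members, because PTF1 binds a paired motif there: an E-box, CACCTG or CAGCTG, beside a TTTCCCA box. RefSeq sequence of GRCm38.p6, a different build from the one the submitters name, was searched on both strands in the 250 bases before each gene's start, and 27 of the 33 genes had an entry. A member was counted if any of its entries held the motif, while the comparison share is over single promoters. TTTCCCA stood in 6 of the 27 (22.2%) beside 6.82% of 32851 promoters of the same length. CACCTG stood in 16 (59.3%, beside 17.2%) and CAGCTG, which reads the same on both strands, in 5 (18.5%, beside 13%). Both a TTTCCCA and an E-box, at any spacing in the window, stood in 5, Prss2, Ctrb1, Cela2a, Cel and Cela3a (18.5%, beside 1.88%). The first 4 of these are printed because they were among the members that moved together across libraries, and Try4, which has a CACCTG but no TTTCCCA in this window, because it departed from them. The stretches are Prss2 at chr6:41521526-41521775 (+ strand), Ctrb1 at chr8:111691011-111691260 (- strand), Cela2a at chr4:141826006-141826255 (- strand), Cel at chr2:28563404-28563653 (- strand) and Try4 at chr6:41302022-41302271 (+ strand), each read 5′ to 3′ in the direction of its gene. Capitals mark the motifs. A motif on the opposite strand reads as its reverse complement, CAGGTG or TGGGAAA, and no printed motif overlaps another.
Prss2: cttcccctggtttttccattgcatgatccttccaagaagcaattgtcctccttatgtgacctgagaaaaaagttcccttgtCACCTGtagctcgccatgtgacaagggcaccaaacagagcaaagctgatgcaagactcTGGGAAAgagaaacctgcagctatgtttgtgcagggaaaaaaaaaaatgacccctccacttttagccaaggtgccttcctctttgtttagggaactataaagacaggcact
Ctrb1: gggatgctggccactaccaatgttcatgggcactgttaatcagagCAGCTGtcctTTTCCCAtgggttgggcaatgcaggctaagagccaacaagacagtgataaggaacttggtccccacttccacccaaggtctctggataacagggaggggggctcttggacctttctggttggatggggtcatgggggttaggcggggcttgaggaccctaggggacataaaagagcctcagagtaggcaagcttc
Cela2a: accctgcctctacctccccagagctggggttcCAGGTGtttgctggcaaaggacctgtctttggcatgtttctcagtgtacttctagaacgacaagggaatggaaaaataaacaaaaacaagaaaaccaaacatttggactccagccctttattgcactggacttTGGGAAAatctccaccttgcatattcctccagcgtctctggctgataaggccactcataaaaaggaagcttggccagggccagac
Cel: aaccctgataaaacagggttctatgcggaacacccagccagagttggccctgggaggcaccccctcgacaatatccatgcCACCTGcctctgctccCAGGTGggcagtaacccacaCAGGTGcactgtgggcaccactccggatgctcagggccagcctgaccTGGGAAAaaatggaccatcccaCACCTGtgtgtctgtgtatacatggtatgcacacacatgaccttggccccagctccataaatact
Try4: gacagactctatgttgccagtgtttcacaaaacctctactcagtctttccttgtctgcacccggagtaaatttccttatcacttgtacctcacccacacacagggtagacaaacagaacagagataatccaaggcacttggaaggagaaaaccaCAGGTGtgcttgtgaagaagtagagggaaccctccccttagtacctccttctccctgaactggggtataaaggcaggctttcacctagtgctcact
In Ctrb1 the E-box and the TTTCCCA lie at bases -205 to -200 and -195 to -189 from the gene's start, and in Prss2 they lie at -169 to -164 and -111 to -105. Cel holds 4 CACCTG matches in the window. A match is a stretch of letters and no measure of binding, and a count of both motifs at any spacing is no count of the paired site. Cela3a holds both motifs too and stayed between 0 and 0.481 TPM in all 22 libraries.

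The trypsinogens are the precursors of trypsin. Of their 6 members 5 were tested, Prss2 rose in C57, and none passed the test in Mixed. The share of all tested genes that rose was 26.4% in C57 and 30.7% in Mixed. Prss2 (ENSMUSG00000057163), the family member with the highest mean level, was 43.3, 51.7, 34.1, 31.5 and 54.9 TPM in the 5 C57 WT libraries, and the C57 Het libraries ran from 32.1 to 235 with a median of 96 TPM. Only Het 3 of that group lay inside the WT range. In Mixed WT the 5 values were 106, 54.6, 131, 24.6 and 59.5 TPM, and Mixed Het ran from 88.7 to 176 with a median of 124 TPM. The Mixed groups overlapped, and 2 of 6 Het libraries lay above every WT library. The Prss2 difference in log2(TPM + 1) was 1.16 (SE 0.41) in C57, adjusted p = 0.0278 in limma, and 0.95 (SE 0.41) in Mixed, adjusted p = 0.0638. The C57 call was lost without C57 Het 5, Het 6, WT 3 or WT 4, and with no filter on low values (adjusted p = 0.0695). In Mixed, Prss2 passed without Mixed WT 1 or WT 3, or without C57 Het 3 or Het 5, which share the estimate of spread.

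The other trypsinogens were Try4, Try5, Try10, Prss3 and Prss1, related genes whose sequences were not compared here. The authors' counting may have split any reads they share, so their levels are uncertain. Try4 was 50.97 to 81.7 TPM in C57 WT and 47.5 to 338 TPM in C57 Het, and its Mixed values fell into separate ranges that are given below. Try5 was 30.5 ± 4.74 TPM (SD, n = 5) in C57 WT, 88.3 ± 59.4 TPM (n = 6) in C57 Het, 53.7 ± 34.7 TPM (n = 5) in Mixed WT and 88.7 ± 30.8 TPM (n = 6) in Mixed Het. Its difference in C57 was 1.17 with an adjusted p of 0.051, just short of the threshold. Try10 stayed between 0.537 and 4.44 TPM throughout, and Prss1, the counterpart by name of the main human trypsinogen, never passed 1.83 TPM.

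Prss3, a further trypsinogen, was the one member called lower in Mixed than in C57 Het islets. It was 2.67, 1.74, 6.05, 5.46 and 2.27 TPM in C57 WT and ran from 3.74 to 19.5 with a median of 10.9 TPM in C57 Het. Its values were 0.145, 0.380, 13.8, 1.56 and 1.45 TPM in Mixed WT and ran from 0 to 10 with a median of 2.29 TPM in Mixed Het. WT 3 stood high and WT 1 and WT 2 near 0 within Mixed WT, and the 2 Het groups overlapped. Mixed minus C57 in Het was -1.89 (SE 0.58), adjusted p = 0.0239 in limma, while the C57 Het minus WT value was 1.30 (adjusted p = 0.0965) and the Mixed one 0.08 (adjusted p = 0.929). Leaving out C57 Het 5, C57 Het 6, Mixed Het 1 or Mixed Het 3 in turn ended the call between the Het groups. In C57 the genotype difference passed in a fit on the C57 libraries alone (adjusted p = 0.0174).

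Chymotrypsinogens are the second large protease family. Ctrb1 (ENSMUSG00000031957), chymotrypsinogen B, had the highest mean of all 33 genes. It was 134, 210.4, 129.9, 99.9 and 185 TPM in C57 WT and ran from 122 to 861 with a median of 369.6 TPM in C57 Het, and 5 of 6 Het libraries lay above every WT library. In Mixed WT it was 344, 177, 422, 85.7 and 222 TPM, and Mixed Het ran from 277 to 637 with a median of 412 TPM. WT 1 and WT 3 lay inside the Het range and WT 4 far below it. The difference was 1.31 (SE 0.41) in C57, adjusted p = 0.0162 in limma, and 0.99 (SE 0.41) in Mixed, adjusted p = 0.0558, so that Ctrb1 rose in C57 alone by this threshold, which the interaction (-0.32, adjusted p = 0.768) does not show to be a difference between backgrounds.

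Ctrl, a chymotrypsin-like protease, rose on both backgrounds. C57 WT islets had 14.5 ± 3.97 TPM (SD, n = 5) of it and C57 Het islets 41.2 ± 24.2 TPM (n = 6), a difference of 1.29 (SE 0.34) with an adjusted p of 0.00493 in limma. Mixed WT islets had 23.1 ± 12.4 TPM (n = 5) and Mixed Het islets 38.8 ± 6.43 TPM (n = 6), a difference of 0.88 (SE 0.34) with an adjusted p of 0.0382. The Mixed call was lost with median-of-ratios scaling (adjusted p = 0.0784), quantile normalization, sample weights or no filter, and on leaving out any of 6 Mixed libraries in turn, WT 4 among them.

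Ctrc, chymotrypsin C, which cleaves and controls trypsinogen, was called between backgrounds and in neither genotype comparison. It passed the filter through its Mixed libraries, as most of its C57 values were under 1 TPM, and the calls between backgrounds carry that limit. It was 1.27, 0.747, 0.295, 0.0850 and 0.0876 TPM in C57 WT and ran from 0.569 to 1.21 with a median of 0.866 TPM in C57 Het. In Mixed WT it was 4.28, 2.41, 8.93, 0.169 and 2.003 TPM, and Mixed Het ran from 1.31 to 11.4 with a median of 5.10 TPM. All 6 Mixed Het libraries lay above all 6 C57 Het libraries, and 4 of 5 Mixed WT libraries lay above every C57 WT library. Mixed minus C57 was 1.34 (SE 0.43) in WT, adjusted p = 0.0447 in limma, and 1.7 (SE 0.39) in Het, adjusted p = 0.0037. The WT call was lost on leaving out any of 15 libraries in turn and is a borderline one, whereas the Het call held in each of those fits. The genotype differences were 0.37 (C57, adjusted p = 0.503) and 0.73 (Mixed, adjusted p = 0.153).

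Elastases cut proteins after small residues. Of 4 members 3 were tested. All 3 rose in C57, beside 26.4% of all tested genes, and Cela1 and Cela3b rose in Mixed, beside 30.7%. Cela1 (ENSMUSG00000023031) separated the genotypes completely. It was 18.9, 24.1, 20.9, 14.6 and 24.1 TPM in C57 WT and ran from 25.5 to 98.5 with a median of 46.6 TPM in C57 Het, and it was 48.2, 26.6, 48.2, 10.2 and 26.7 TPM in Mixed WT and ran from 51.8 to 84.1 with a median of 56.2 TPM in Mixed Het. Every Het value lay above every WT value of its background. The difference was 1.22 (SE 0.33) in C57, adjusted p = 0.00641 in limma, and 1.05 (SE 0.33) in Mixed, adjusted p = 0.0135. Without Mixed WT 4 the Mixed call was lost.

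Cela3b rose by 1.26 (SE 0.37) in C57 (adjusted p = 0.0106 in limma) and 1.09 (SE 0.37) in Mixed (adjusted p = 0.0208), with 5 of 6 Het libraries above every WT library on each background. The Mixed call again needed WT 4. Cela2a went from 14.8 ± 3.50 TPM (SD, n = 5) in C57 WT to 40.3 ± 25.2 TPM (n = 6) in C57 Het, a rise with an adjusted p of 0.0145 in limma, and 27.7 ± 14.99 and 37.8 ± 7.75 TPM in Mixed WT and Het, where the adjusted p was 0.188. Cela3a was under 0.5 TPM in each library.

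Carboxypeptidases trim residues from the carboxyl end. Cpa1 and Cpb1 both rose in C57, beside 26.4% of all tested genes, and neither rose in Mixed, where 30.7% of all tested genes did. Cpa1 had the largest C57 difference of the 29 genes. It was 12.9, 19.2, 10.3, 12.1 and 20.8 TPM in C57 WT and ran from 17.3 to 90.9 with a median of 40.6 TPM in C57 Het, where 5 of 6 libraries lay above every WT library. It was 48.02, 21.4, 53.5, 9.87 and 25.6 TPM in Mixed WT and ran from 39.5 to 57.2 with a median of 50.3 TPM in Mixed Het, and WT 1 and WT 3 stood inside the Het range. The difference was 1.42 (SE 0.37) in C57, adjusted p = 0.00533 in limma, and 0.86 (SE 0.37) in Mixed, adjusted p = 0.0663. Cpb1 was 11.2 ± 3.36 and 28.9 ± 17.8 TPM in C57 WT and Het, and 20.8 ± 12.4 and 25.1 ± 4.41 TPM in Mixed WT and Het.

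Of the 6 fat-digesting genes, 5 rose in C57, beside 26.4% of all tested genes, and Clps alone rose in Mixed, beside 30.7%. Clps encodes colipase, the cofactor that anchors pancreatic lipase to fat droplets. It was 44.1, 38.6, 34.1, 31.6 and 54.8 TPM in C57 WT and ran from 43.3 to 198 with a median of 76.5 TPM in C57 Het, and 5 of 6 Het libraries lay above every WT library. It was 107, 39.2, 74.9, 23.6 and 49.7 TPM in Mixed WT and ran from 90.6 to 168 with a median of 118 TPM in Mixed Het, and WT 1 was the Mixed WT library inside the Het range. The difference was 1.03 (SE 0.34) in C57, adjusted p = 0.02 in limma, and 1.20 (SE 0.34) in Mixed, adjusted p = 0.00678. The C57 call was lost without C57 Het 5.

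Pnlip, pancreatic lipase itself, was 28.7 ± 8.68 TPM (SD, n = 5) in C57 WT, 79.3 ± 47.1 TPM (n = 6) in C57 Het, 47.8 ± 26.01 TPM (n = 5) in Mixed WT and 80.2 ± 14.6 TPM (n = 6) in Mixed Het. It rose in C57 (adjusted p = 0.0109 in limma) and stood just short of the threshold in Mixed (adjusted p = 0.052). The lipase-related genes Pnliprp1 and Pnliprp2 and the bile salt-activated lipase Cel also rose in C57, by 1.18, 0.98 and 1.23, and their Mixed differences were 0.79, 0.76 and 0.44. Pla2g1b, the secreted phospholipase A2, did not pass on either background (0.83, adjusted p = 0.0747, and 0.72, adjusted p = 0.109, in limma).

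Amylases cut starch. Neither of the 2 members passed a genotype test, which 38.0% of all tested genes did in C57 and 44.1% in Mixed. Amy1, the amylase best known from salivary gland, was 3.14, 1.02, 1.44, 1.44 and 2.31 TPM in C57 WT and ran from 1.24 to 2.05 with a median of 1.77 TPM in C57 Het. It was 0.899, 1.60, 1.44, 1.68 and 0.947 TPM in Mixed WT and ran from 1.34 to 2.23 with a median of 1.91 TPM in Mixed Het, so its highest library of all 22 was a C57 WT one. Amy1 was the only tested member with a negative C57 difference, of -0.06 (SE 0.16), adjusted p = 0.803 in limma, whose sign flipped with quantile normalization, sample weights or without C57 WT 1 or WT 5; in Mixed it was 0.32 (adjusted p = 0.109).

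Amy2b, a pancreatic amylase, was 0.583, 0.0798, 0.289, 0.0908 and 0.0936 TPM in C57 WT and ran from 0.175 to 5.21 with a median of 0.573 TPM in C57 Het. It was 6.25, 1.73, 1.92, 0 and 3.16 TPM in Mixed WT, listed at 0 in WT 4, and ran from 0.388 to 9.37 with a median of 6.24 TPM in Mixed Het. The Mixed Het libraries were higher than all C57 Het libraries in 4 of 6 cases, and Mixed Het 6 was low. Amy2b too passed the filter through its Mixed libraries, as most of its C57 values were under 1 TPM. Mixed minus C57 in Het was 1.58 (SE 0.47), adjusted p = 0.0201 in limma, a call that ended without Mixed Het 2 or Mixed Het 5 and with a pseudocount of 0.1 (adjusted p = 0.0531). Members of the amylase cluster are related genes whose sequences were not compared here, so the split of any shared reads among them is uncertain. Amy2a1, a further pancreatic amylase outside the 33, rose in C57 by 1.13 (adjusted p = 0.0117 in limma) and differed by 0.52 in Mixed (adjusted p = 0.218).

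Of the 7 other secreted and granule proteins, 6 rose in C57, and 5 of these, Spink1, Sycn, Zg16, Rnase1 and Klk1, also rose in Mixed. Of all tested genes 26.4% rose in C57 and 30.7% in Mixed. Zg16, a lectin of the zymogen granule, was 9.11, 10.2, 7.28, 5.05 and 9.31 TPM in C57 WT and ran from 11.3 to 41.3 with a median of 17.8 TPM in C57 Het. It was 15.4, 8.64, 16.4, 3.18 and 11.2 TPM in Mixed WT and ran from 18.4 to 37.2 with a median of 22.3 TPM in Mixed Het. The genotypes did not overlap on either background. The difference was 1.18 (SE 0.33) in C57, adjusted p = 0.00761 in limma, and 1.22 (SE 0.33) in Mixed, adjusted p = 0.00488, and both calls held without any single library.

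Sycn, syncollin, which lies on the inner face of the granule membrane, was 7.54, 6.49, 5.73, 3.86 and 7.52 TPM in C57 WT and ran from 8.80 to 33.5 with a median of 13.3 TPM in C57 Het, with no overlap. In Mixed it was 19.1, 6.66, 13.5, 2.82 and 10.9 TPM in WT and ran from 12.4 to 26.6 with a median of 23.1 TPM in Het, where 4 of 6 libraries lay above every WT library. The difference was 1.15 (SE 0.34) in C57, adjusted p = 0.0115 in limma, and 1.09 (SE 0.34) in Mixed, adjusted p = 0.0138. Rnase1, the pancreatic ribonuclease, rose by 1.11 (SE 0.35) and 1.07 (SE 0.35), with adjusted p of 0.017 and 0.0178 in limma and 5 of 6 Het libraries above every WT library on each background. The Mixed calls of Sycn and Rnase1 were lost without Mixed WT 4, and the C57 call of Rnase1 without C57 WT 4.

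Spink1, the inhibitor that guards against early trypsin activity, was 1.82, 3.11, 2.33, 0.786 and 2.09 TPM in C57 WT and ran from 1.99 to 10.9 with a median of 4.68 TPM in C57 Het. It was 2.94, 2.17, 5.44, 0.849 and 1.27 TPM in Mixed WT and ran from 2.85 to 6.36 with a median of 5.36 TPM in Mixed Het. The groups overlapped on both backgrounds. Spink1 rose by 1.02 (SE 0.33) in C57, adjusted p = 0.0183 in limma, and by 0.89 (SE 0.33) in Mixed, adjusted p = 0.0325. Klk1, tissue kallikrein, rose by 1.04 (SE 0.32) in C57, adjusted p = 0.0146, and by 0.81 (SE 0.32) in Mixed, adjusted p = 0.047. The Mixed calls of Spink1 and Klk1 were lost with median-of-ratios scaling (adjusted p = 0.0596 and 0.0908) and on leaving out single libraries, 6 of 22 for Spink1 and 14 of 22 for Klk1, Mixed WT 4 among both. The C57 call of Spink1 was lost without C57 Het 5 or WT 4. Gp2, the main granule membrane glycoprotein, rose in C57 (0.99, adjusted p = 0.0378) and was 0.55 (adjusted p = 0.231) in Mixed, and Cuzd1, a granule protein, passed on neither background.

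Of the 3 acinar transcription factors, 2 were at the edge of detection. Ptf1a, the defining factor of the lineage, was at most 0.194 TPM in any library, and Rbpjl, its partner, at most 0.760 TPM, so neither was tested. Bhlha15, which other secretory cells also express, was abundant: 19.1, 21.9, 22.6, 35.5 and 15.9 TPM in C57 WT and from 19.8 to 38.2 with a median of 27.99 TPM in C57 Het. It was 53.9, 24.1, 28.01, 21.1 and 36.8 TPM in Mixed WT and ran from 38.1 to 65.2 with a median of 50.6 TPM in Mixed Het. Only 2 of 6 Het libraries lay above every WT library on either background. Bhlha15 rose in Mixed by 0.70 (SE 0.22), adjusted p = 0.0127 in limma, and was 0.36 in C57, adjusted p = 0.201; it was also higher in Mixed than in C57 Het by 0.80 (SE 0.21), adjusted p = 0.00857. The Mixed genotype call was lost without Mixed WT 4.

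**Figure D3:**
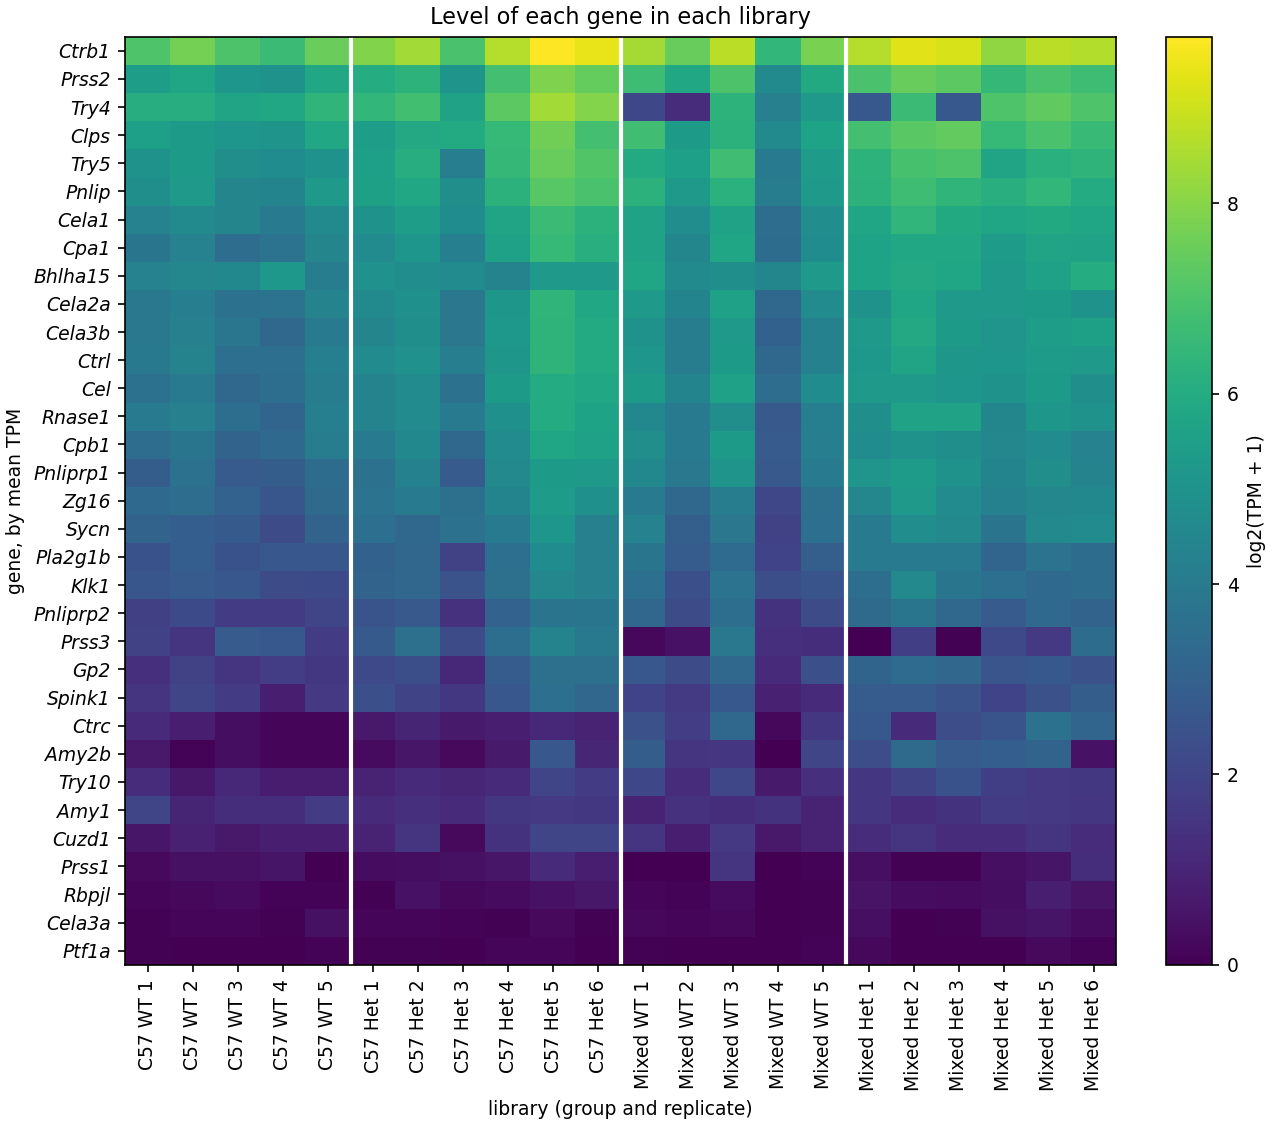
Level of each of the 33 genes (rows, ordered by mean TPM) in each of the 22 libraries (columns, by group), as log2(TPM + 1) on a colour scale from 0. C57 Het 5 and Het 6 are bright down most rows and Mixed WT 4 dark, while Try4 and Prss3 are dark in 4 Mixed libraries whose other rows are not.

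Most of the genes kept their proportions to each other from library to library. Of the 28 members above 0 in every library, 26 varied less relative to the other members than in absolute level, measured as the SD over 22 libraries of the log2 ratio to the others against the SD of log2 TPM. For 22 of them the SD of the ratio was at most 0.5. Pnlip and Ctrl had the tightest ratios, with an SD of 0.146 each beside 0.881 and 0.845 for the level, and Prss2 had 0.156 beside 0.918. Amy1 (0.896 beside 0.442) and Bhlha15 (0.702 beside 0.585) varied more relative to the others than in level. Among the 26, the SD of the ratio was still above 0.5 for Try4 (2.06 beside 2.09), Ctrc (1.68 beside 2.03), Rbpjl (0.948 beside 1.35) and Try10 (0.559 beside 0.865). Members at 0 in any library, Prss3 and Amy2b among them, were left out of this measure. As an example of a kept proportion, Ctrb1 to Cela1 had a mean ratio of 7.52 in the 11 C57 and 7.63 in the 11 Mixed libraries. These are ratios within libraries, given as descriptions; they show unequal or equal change, not which gene moved.

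Try4 kept its proportion in the C57 mice and not in the Mixed mice. In all 11 C57 libraries the ratio of Try4 to Prss2 lay between 1.30 and 1.77, with an SD of the log2 ratio to the other members of 0.161, against 2.40 in Mixed. The Mixed libraries fell into 3 separate ranges. In WT 1, WT 2, Het 1 and Het 3 the ratio was 0.0248 to 0.0439; in WT 3, WT 4, WT 5 and Het 2 it was 0.557 to 0.735; and in Het 4, Het 5 and Het 6 it was 1.29 to 1.52. Both genotypes occurred in the low and the middle range, and only Het libraries in the high one. These ranges were read from the values, were not tested, and are not groups of the study.

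Of the genes near Try4, Prss3 and Gm5771 were lowest in the low range, and Try5 and Try10, which lie nearer to Try4, were not. RefSeq orders the trypsinogen genes of chromosome 6 as Try4, Try5, Try10, Prss3, Gm5771, Gm5409, Gm10334, Prss1 and Prss2, with pseudogenes between them. In the 4 libraries with the low ratio, Prss3 was 0 to 0.380 TPM and its neighbour Gm5771, a predicted trypsinogen, was listed at 0 in each. Their Prss2 was 54.6 to 155 TPM, their Try5 44.2 to 131 TPM, their Try10 1.33 to 4.44 TPM and their Ctrb1 177 to 566 TPM. The low values were not shared by these genes. In the middle range Prss3 was 1.45 to 13.8 TPM and Gm5771 1.01 to 9.11 TPM, and in the high range 2.04 to 10 and 1.84 to 12.5 TPM. Gm5409, the pseudogene next to Gm5771, ran the other way: 0.597 to 1.60 TPM in the low range, 0.0682 to 1.39 TPM in the middle range, 0 in the high range and at most 0.0606 TPM in C57. The 2 neighbours and these ratios were chosen after their values were seen. Reads that copies share, and strain sequence that differs from the reference, were not examined, and their part was not tested.

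**Figure D4:**
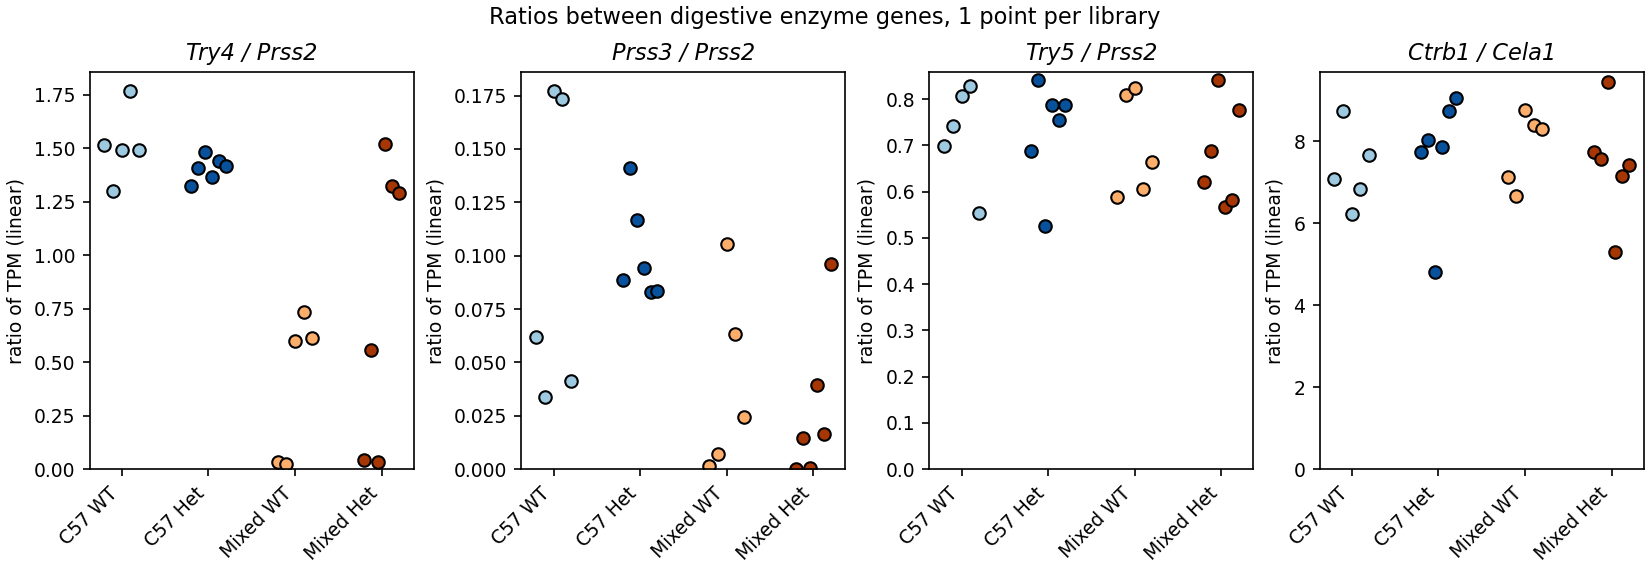
Ratios of TPM between pairs of genes (vertical axes, linear from 0) in each library, by group, with 1 point per library. Try4 to Prss2 is near 1.5 in every C57 library and spreads from 0.0248 to 1.52 in Mixed, Prss3 to Prss2 reaches 0 in Mixed, and Try5 to Prss2 and Ctrb1 to Cela1 overlap across all groups.

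Between backgrounds, few members were called. Mixed WT islets held 1.52 times the mean sum of C57 WT islets, and Mixed Het islets 1.02 times that of C57 Het islets. In WT mice 1 member, Ctrc, was called, beside 11.3% of all tested genes, and in Het mice 4 were, beside 20.5%: Ctrc, Amy2b and Bhlha15 higher and Prss3 lower in Mixed. Ctrc and Amy2b entered the test through the Mixed libraries, where they are higher. Without Mixed WT 4, 5 members were called in WT, beside 9.03% of all tested genes. The median differences of the 29 were 0.50 in WT and 0.28 in Het, with 26 of 29 positive in each, beside medians of 0.01 and 0.02 over all tested genes. As a ratio within libraries, Ctrc to Ctrl was 0.0050 to 0.0898 in C57 and 0.0192 to 0.280 in Mixed. Amy2b to Cela1 was 0.0033 to 0.0529 in C57 and 0 to 0.130 in Mixed. Both ratios overlapped between backgrounds. They reuse the Ctrc and Amy2b values behind the calls and add no separate evidence. The comparisons between backgrounds share libraries with the genotype comparisons.

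Other genes of the acinar programme, from a second written list of 22, were set beside them. Of the 13 tested, 5 rose and 0 fell in C57, and 8 rose and 1 fell in Mixed, with medians of 0.36 and 0.66. Over all tested genes 38.0% passed in C57 (26.4% upward) and 44.1% in Mixed (30.7% upward), so the C57 count was close to that background. Gatm, an amidinotransferase of creatine synthesis that is abundant in acinar cells, rose by 0.52 in C57 and 0.99 in Mixed (adjusted p = 0.00552 and 8.07e-06 in limma), and 2210010C04Rik, a trypsinogen-like gene, rose in C57 by 1.18 (adjusted p = 0.02). Gnmt fell in Mixed by 0.52 (adjusted p = 0.0211). The partners of PTF1A and the upstream factor of Bhlha15 were not called higher: of Tcf3, Tcf12, Tcf4, Rbpj and Xbp1, Tcf4 fell in C57 (-0.39, adjusted p = 0.0284 in limma) and Xbp1, which drives Bhlha15, fell in Mixed (-0.31, adjusted p = 0.00233). Of 5 Reg genes tested, acinar stress products that islets can also make, 0 passed on either background in limma, and Reg1 differed by 1.08 in C57 (unadjusted p = 0.0319, adjusted p = 0.0745).

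Markers of other cell types are read against the same background shares, and the lists are short. Of 10 duct markers tested, 3 rose in C57, and 6 rose and 2 fell in Mixed. The summed level of the duct list ran 761 to 1060 TPM in WT and 754 to 985 TPM in Het islets of C57. In those of Mixed it ran 724 to 1911 and 924 to 1416 TPM. Krt8 and Krt18 were its highest genes, with means of 489 and 337 TPM over 22 libraries. In Mixed, Krt8 fell by 1.01, while Krt19 and Sox9, with means of 4.41 and 2.60 TPM, rose by 0.99 and 1.08. The sum therefore does not give the direction of each marker. Spp1, a secreted phosphoprotein, rose by 1.67 in C57 (adjusted p = 0.00596 in limma) and 2.06 in Mixed (adjusted p = 0.000867), and Cftr and Onecut1, defining duct genes, were under 1 TPM in every library. Of 8 mesenchymal markers tested, 2 fell in C57 and 5 rose in Mixed, with summed levels, in the same order, of 46.8 to 127, 48.1 to 74.9, 42.1 to 72.4 and 67.5 to 392 TPM. Of 8 immune markers tested, 3 fell in C57, and 7 rose and 1 fell in Mixed, with sums of 330.1 to 416, 212 to 295, 205 to 269 and 297 to 588 TPM. Endothelial markers fell in C57 (5 of 8) and 0 of 8 passed in Mixed, and non-beta endocrine markers rose (4 of 7 in C57 and 5 of 7 in Mixed). Of 7 beta cell markers 1 rose and 1 fell in C57 and 4 fell in Mixed, of 5 Schwann and neural markers 3 rose in Mixed, and of 6 immediate early genes 2 fell in Mixed; no gene of the last 2 lists passed in C57. All 5 adipocyte markers stayed under 1 TPM. The part of these cell types in the result was not tested.

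Outside the lists, Dmbt1, a mucosal glycoprotein gene that is also made in the pancreas, followed the digestive enzyme genes most closely. Its deviation from the group means correlated with the mean deviation of the 29 members at r = 0.83 (Pearson, 22 libraries). The next were Nupr1, a stress-response gene of the acinar pancreas (r = 0.70), and Mon1a (r = 0.68), and the tenth, Lamtor3, had r = 0.62. The points share libraries and their totals, and the values are a description. Dmbt1 itself passed in neither genotype test (C57 0.87, adjusted p = 0.0794, and Mixed 0.10, adjusted p = 0.849, in limma), whereas Nupr1 rose in both (0.81, adjusted p = 0.00378, and 0.72, adjusted p = 0.0066).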

How the data were processed

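Poly(A) RNA of islets from 22 male mice was sequenced, with 1 library per mouse. The authors deposited 1 table of TPM for 57010 genes, per the file headers, with 0 value columns left unused here. STAR 2.7.10b, MultiQC 1.7 and the build mm39 are named in the submitters' processing notes, and the counting tool and annotation are not given in the sources used here. Without strand or counting details, reads shared by gene copies or overlapping genes cannot be assigned. TPM keeps no depth, so no interval or floor that needs counts was computed, and the number of mice limits the precision.

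The scale was log2(TPM + 1), on which changes of low genes come out too small. Genes with at least 1 TPM in at least 5 samples were kept (16756), and limma 3.58.1 in R 4.3.3 (lmFit, contrasts.fit, eBayes with trend) fitted 4 group means over 22 samples. Adjusted p-values are Benjamini-Hochberg over all genes tested, with a threshold of 0.05, and every adjusted p in the text is from limma. Full statistics are given for the member with the highest mean in each role, those called in both genotype contrasts or in any other contrast, and those with a negative genotype difference; other members are given by values, differences or ranges. The neighbour genes and ratios were chosen after their values were seen. The members, lists and tests were chosen with earlier results of these data known. The fit was tested on simulated data. Promoter sequence came from RefSeq (GRCm38.p6), where 27 of 33 members matched by symbol.

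The alternatives were another pseudocount, other filters, 3 other scalings, fits on the samples of 1 contrast, no trend, sample weights, a threshold of 0.01, a covariate of 13 other acinar genes, and leaving out each library in turn.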

Additional observations from a re-analysis of the deposited data

Results flagged for a closer look

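In 11 of 136 sets of values (each of the 33 genes, and their sum, in each of the 4 groups), 1 library stood farther from the rest than Dixon's 95% limit allows; chance gives about 5% of sets. Of the trypsinogens, Prss1 stood high at 1.83 TPM in Mixed WT 3 and at 1.41 TPM in Mixed Het 6, and Prss3 stood high in the same 2 libraries, at 13.8 and 10 TPM. In Mixed Het 2, Cela1 (84.1 TPM), Zg16 (37.2 TPM) and Klk1 (22.8 TPM) stood high, and this library had the highest sum of its group. In C57 Het 5, the library with the highest sum of all, Sycn (33.5 TPM) and Amy2b (5.21 TPM) stood high. Among genes under the filter, Cela3a stood high in C57 WT 5 (0.359 TPM) and Rbpjl in Mixed Het 5 (0.760 TPM). The calls of Cela1 and Zg16 in Mixed held without Mixed Het 2 and that of Sycn in C57 held without C57 Het 5, while the Mixed call of Klk1 was lost without Mixed Het 2.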

How the results depend on the processing

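Depth is unknown, most members lie under 100 TPM, and each group holds 5 or 6 mice. No paired analysis was possible because the replicate numbers only name the mice and the labels pair none of them.

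With a threshold of 0.01, members called fell from 19 to 5 in C57, from 10 to 2 in Mixed, from 1 to 0 between WT groups and from 4 to 2 between Het groups. Leaving out each library in turn gave 12 to 22 calls in C57, 2 to 19 in Mixed, 0 for the interaction, 0 to 5 between WT groups (5 without Mixed WT 4) and 3 to 4 between Het groups; the median difference ranged from 0.90 to 1.32 in C57, from 0.52 to 1.09 in Mixed and, for the interaction, from -0.49 to 0.03. The WT call of Ctrc was also lost (0 members) with no filter, a mean TPM of at least 5 (which leaves Ctrc untested), quantile normalization or a fit on the WT samples alone, and a mean TPM of at least 5 left 2 between Het groups. The other scalings, pseudocount and variance settings kept the direction of every count of calls.

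With the mean of 13 other acinar genes as a covariate, 0 members were called in C57 and 12 in Mixed, all lower, 6 for the interaction, all lower, 3 between WT groups and 6 between Het groups, 4 of them lower. These fits called 23.6%, 17.4%, 4.63%, 10.7% and 13.6% of all tested genes in the same comparisons, in that order. The medians became -0.0070 in C57 and -0.65 in Mixed. Genes of that list rose with genotype themselves, so the fit compares members at equal levels of it; the cause of the reversal was not tested. Under it the C57 differences turned to -0.13 for Prss2, -0.0074 for Ctrb1, -0.0070 for Rnase1, -0.11 for Ctrc and -0.35 for Amy2b, and the Mixed differences to -0.86 for Prss2, -0.80 for Prss3, -0.84 for Ctrb1, -0.65 for Ctrl, -0.39 for Cela1, -0.60 for Cela3b, -0.77 for Cpa1, -0.15 for Clps, -0.46 for Amy2b, -0.42 for Spink1, -0.29 for Sycn, -0.25 for Zg16, -0.49 for Rnase1 and -0.44 for Klk1.

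The uncalled Mixed difference of Prss3 turned to -0.15 with a pseudocount of 0.1, -0.23 and -0.16 without Mixed WT 1 and WT 2, and -0.05 and -0.31 without Mixed Het 4 and Het 6; leaving out each library gave -0.31 to 0.69. The uncalled C57 difference of Amy1 turned to 0.011 with quantile normalization, 0.17 with sample weights, and 0.086 and 0.0055 without C57 WT 1 and WT 5; leaving out each library gave -0.17 to 0.086.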
